A study of Mus musculus with 40 samples.

Results

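The cytosolic ribosomal protein genes were examined across the midbrain and spinal cord of mice in a model of Parkinson's disease with pain. Members were chosen by symbol alone: a gene was taken when its symbol was Rpl or Rps followed by a number and at most 1 letter (a, x or l), or when it was Rplp0, Rplp1, Rplp2 or Rpsa. This gave 83 of the 40213 gene symbols in the count tables, 51 of the large subunit and 32 of the small subunit. All 40 libraries came from male C57BL/6N mice of 8 weeks, with 4 libraries in each of 5 groups per tissue. Con mice received saline. MPTP-Veh mice received the dopaminergic toxin MPTP at 20 mg/kg intraperitoneally, in 4 injections spaced by 2 h, and then saline at the acupoint GB34 of the hind limb. MPTP-SU mice received the same MPTP and then, from 1 week later, 4 injections at GB34 of SUEHP, an herbal pharmacopuncture preparation. MPTP-SU+S mice received in addition a cannabinoid CB1 receptor antagonist, spelled SR141714A in the labels, at 3 mg/kg, and MPTP-SU+T mice the PPARγ inhibitor T0070907 at 5 mg/kg. The libraries hold poly(A) RNA of whole tissue pieces, so a lower value can reflect fewer cells of a type or less RNA per cell, and these cannot be told apart. Neither the labels nor the methods say that each replicate number was a separate mouse, so the p-values measure only the spread between these samples.

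Ribosomal proteins assemble with ribosomal RNA into the small subunit, which reads the messenger RNA, and the large subunit, which joins the amino acids. Most are needed in equal number in every ribosome. Rplp0, Rplp1 and Rplp2 form the acidic stalk of the large subunit, where the elongation factors bind, and Rpsa sits on the small subunit. Their mRNAs are among the most abundant of a cell, are short, and begin at a run of C and T bases, the 5′ terminal oligopyrimidine (TOP) motif. Through this motif the kinase mTORC1 and the binding protein Larp1 set how strongly the mRNAs are translated and how stable they are. Paralogs with restricted expression, such as Rpl3l in striated muscle and Rpl10l in testis, replace the common protein in some tissues.

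The bases around the longest pyrimidine run near the annotated start site are shown for 8 of the members on which the results turn. The windows come from RefSeq promoter entries on GRCm38.p6, each of 30 bases, read 5′ to 3′ on the strand of the gene. Capitals mark the longest unbroken run of C and T near the start. Each window was placed on this run, which began 27 bases after the start in Rpl36a, 21 in Rpl26, 25 in Rps15 and 20 in Rpsa. The windows of Rpl36a, Rpl26, Rps15 and Rpsa do not hold the start site itself. Rpl36a lies at chrX:134585673-134585702 on the plus strand, Rpl26 at chr11:68901579-68901608 on the plus strand, Rpl14 at chr9:120571501-120571530 on the plus strand, Rplp2 at chr7:141447638-141447667 on the plus strand, Rps15 at chr10:80292448-80292477 on the plus strand, Rpl13a at chr7:45128722-45128751 on the minus strand, Rpsa at chr9:120127778-120127807 on the plus strand and Rpl39 at chrX:37085195-37085224 on the minus strand. The files use GRCm39, so these positions were matched by symbol only. The first 7 were called lower in midbrain MPTP-SU than in MPTP-Veh, in the full set of libraries, and Rpl39 stood higher.
Rpl36a: ggctctagCCTCTCTCTTTCCgagctgcta
Rpl26: gcgtgtagTTCTCTTTCCTTTTgcggccat
Rpl14: agggcgggCCCTCTCTCTTCTCgctgagcg
Rplp2: cgtcagcgTCTTCCTTTCgccgccggacgc
Rps15: agcccgtaCTTCCTTTTCCgagtaaccgcc
Rpl13a: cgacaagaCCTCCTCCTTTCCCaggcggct
Rpsa: gccgcccgTCCTTTCgcgctacccggggac
Rpl39: tctagcgaCTTCTTCTaatcgcgttcttcc
Of the members, 61 had a RefSeq promoter entry. A C and T run of at least 10 bases on the gene's strand, between 15 bases before and 35 bases after the start, was present in 27 of the 61 (44.3%), against 9.35% of the 27025 gene symbols with an entry, a symbol with several entries counting once if any of them matched. With a minimum of 8 bases it was 37 members (60.7%), against 20.4%. The letters CTTTCC, a form the run often takes, were found on the sense strand within 50 bases of the start in 19 members (31.1%), against 5.43% of all symbols. On the antisense strand they were found in 1 member (1.64%), against 5.12%. The letters CTTCCG, the core bound by ETS factors such as GABPA, stood on either strand between 250 bases before and 50 bases after the start in 41 members (67.2%), against 18.8%. TATAAA stood on the sense strand between 50 bases before and the start in 0 members, against 3.15%. These matches describe letters only and no binding was measured.

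The libraries held between 11958200 and 16639823 counts. Tissue markers followed the labels: the dopamine transporter Slc6a3 was at 17.7 to 128 CPM (counts scaled to a common library size) in the midbrain and at 0 to 0.302 in the spinal cord, and the caudal patterning gene Hoxc8 at 0 to 0.156 and at 54.6 to 78.8. One library stood apart. Midbrain MPTP-Veh replicate 4 carried 1.354% of its counts on mitochondrially encoded genes, where the other midbrain libraries carried 9.919% to 17.48%, and it had the highest sum of oligodendrocyte markers in the midbrain Con, MPTP-Veh and MPTP-SU groups, 35835 CPM. Because of this library, the main counts for comparisons that it enters are given with and without it.

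Of the 83 members, 80 passed the filter on low counts in each tissue. Rpl3l (1 to 14 counts per library), Rpl39l (0 to 4) and Rpl10l (0 to 1) did not and were not tested. Among those tested, Rpl32l was the least counted, with 2 to 23. The tested members were short, with a median transcript length of 705 bases against 2792 over the tested midbrain genes with a known length, and 78.8% of them were under 1000 bases, against 8.63%.

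Together the members took between 0.9455% and 2.114% of all counts of a library. In the midbrain, Con libraries gave them 1.421%, 1.35%, 1.416% and 1.359%. MPTP-Veh libraries gave 1.4%, 1.46%, 1.431% and, in replicate 4, 2.114%. MPTP-SU libraries gave 1.061%, 0.9952%, 1.238% and 1.161%, all below every Con and MPTP-Veh library. The antagonist groups lay between, with MPTP-SU+S at 1.185% to 1.312% and MPTP-SU+T at 1.067% to 1.358%, and both overlapped MPTP-SU, while MPTP-SU+T also overlapped Con. In the spinal cord the 5 groups overlapped: 0.9455% to 1.254% in Con, 1.034% to 1.119% in MPTP-Veh, 1.044% to 1.065% in MPTP-SU, 0.9968% to 1.093% with the CB1 antagonist and 1.045% to 1.136% with the PPARγ inhibitor. Long nuclear RNAs took 4.51% to 15.1% of the counts of midbrain MPTP-SU libraries, 1.76% to 11.3% of MPTP-Veh libraries and 1.31% to 2.78% of Con libraries. Of these counts, Gm26917 held 85.2% to 95% in MPTP-SU, 47.5% to 91.1% in MPTP-Veh and 41.2% to 70.2% in Con. In MPTP-SU this share thus mostly followed Gm26917, and whether its reads came from nuclear RNA was not tested. Of the 9 long nuclear RNAs tested, Gm26917 included, 4 were lower in MPTP-SU than in MPTP-Veh at an adjusted p below 0.05 and 0 higher (edgeR quasi-likelihood test; 3 and 0 without MPTP-Veh replicate 4), against 12.8% and 7.38% of all genes. Without overlap, Meg3 stood at 2195 to 3020 CPM against 3655 to 8920, Miat at 111 to 123 against 150 to 490 and Mirg at 14.4 to 19.4 against 23.6 to 46.9. Malat1 overlapped (1589 to 2357 against 1968 to 3160), as did Rian, whose range was the higher in MPTP-SU (559 to 662 against 335 to 582). A further share of the members left the long nuclear RNAs and mitochondrially encoded genes out of the total, a denominator chosen after seeing the data. It was 1.684% to 1.761% in Con, 1.774% to 2.229% in MPTP-Veh and 1.363% to 1.622% in MPTP-SU, and MPTP-SU still lay below both.

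**Figure D1:**
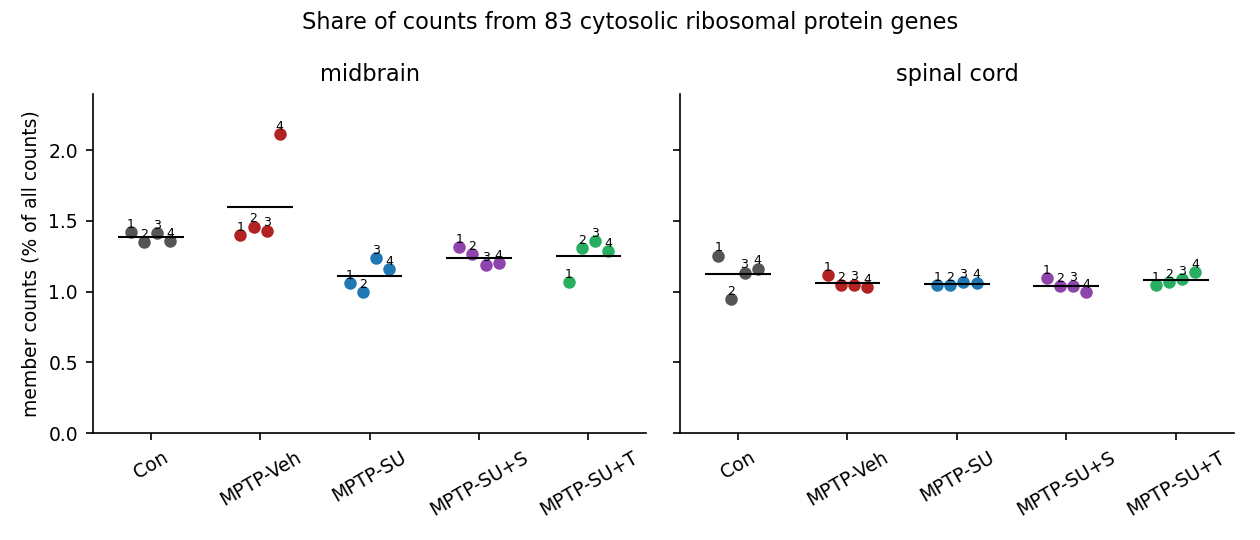
Share of all counts (percent, vertical axis) taken by the 83 ribosomal protein genes in each library, by group, in the midbrain (left) and the spinal cord (right); points are libraries with their replicate number and bars are group means. The 4 midbrain MPTP-SU libraries sit at 0.9952% to 1.238%, below all Con and MPTP-Veh libraries, and MPTP-Veh replicate 4 stands alone at 2.114%.

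Levels between members are compared per kilobase of transcript, in CPM per kb of the Con group (mean ± SD, n = 4). In the midbrain the highest were Rpl23a at 606 ± 26.6, Rpl26 at 527 ± 25.9, Rps29 at 515 ± 39.6, Rps15 at 500 ± 4.38 and Rpl38 at 474 ± 14. From Rpl26 to Rps15 the neighbours differed by less than the larger of their SDs. In the spinal cord Rpl23a led at 482, followed by Rpl26 at 477, Rpl38 at 440, Rpl41 at 406 and Rps29 at 392. The 5 lowest tested members in the midbrain were Rps20 at 39.9, whose annotated transcript of 3706 bases is long for a member, Rps27l at 20.1, Rps4l at 15.8, Rpl6l at 8.69 and Rpl32l at 1.79. All but Rps20 are symbols ending in l. Reads shared between near-identical copies could have been split by the authors' quantification, so the levels of these paralogs are uncertain. A list of 23 ribosomal protein pseudogene symbols held 1.1% to 2.11% of the counts of members and these pseudogenes together. Pseudogenes outside this list were not counted, so the share on all pseudogenes is not known.

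The comparison of MPTP-SU with MPTP-Veh asks what SUEHP changed after MPTP. In the midbrain, 36 of the 80 tested members (45%) fell and 0 rose at an adjusted p below 0.05 (edgeR quasi-likelihood test, Benjamini-Hochberg adjustment over 16629 genes). Over all genes tested, 12.8% passed in the lower direction and 7.38% in the higher. With the study's further demand of a fold change above 1.5, 20 members were called lower and 0 higher, against 9.10% and 4.35% of all genes. The members' median log2 fold change was -0.292, against 0.0007 over all genes, and 66 of the 80 were negative. Large-subunit members made up 27 of the 36 (of 48 tested) and small-subunit members 9 (of 32), with medians of -0.309 and -0.251. MPTP-SU libraries all lay below MPTP-Veh libraries for 33 members and all above for 2, where 11.3% and 10.6% of all genes did so. Markers of other cells moved beside the members: 4 of 8 astrocyte, 3 of 10 microglial and 3 of 14 midbrain markers were lower at an adjusted p below 0.05 and none was higher (edgeR quasi-likelihood test), while without MPTP-Veh replicate 4 these lists had 2, 0 and 2 lower and 2, 1 and 0 higher. Of 5 red blood cell markers 2 were lower and 1 higher, and of 9 oligodendrocyte markers 1 was lower, and without that library 0 and 1, and 0. Their summed levels overlapped, at 2564 to 2978 CPM in MPTP-SU and 2525 to 2994 in MPTP-Veh for astrocytes and 180 to 371 and 181 to 429 for midbrain markers. All markers of both lists were detected in both groups, and their part in the result was not tested.

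MPTP-Veh replicate 4 bore on the size of these changes. With it left out, 36 members were lower and 2 higher at an adjusted p below 0.05 (edgeR quasi-likelihood test with Benjamini-Hochberg adjustment; 8.07% and 6.55% of all genes), 30 of them shared with the full set, and the median was -0.227, against 0.0154 over all genes. Only 5 members were then also past a fold change of 1.5, all of them lower (2.09% of all genes, with 1.31% higher), 4 of them shared with the full set, among these Rpl21, Rpl36 and Rplp2, which are named because the count is small. Without replicate 4 the MPTP-SU libraries lay below the other 3 MPTP-Veh libraries for 44 members and above for 3 (13.3% and 11.5% of all genes). Tested on its 8 libraries alone, with no other group to share the spread, the comparison called 0 members, and 0 passed the adjusted p by itself, as for all genes tested (0), with 30 members (20.4% of all genes) at an unadjusted p below 0.05 (edgeR quasi-likelihood test). Offsets that remove each library's trend with transcript length and GC content gave 27 members lower and 4 higher at an adjusted p below 0.05 (12.3% and 7.91% of all genes), 10 called lower and 1 higher (6.57% and 3.02%), 9 of these among the 20, and a median of -0.164. The 4 were Rpl39, Rps27l, Rpl10 at 0.28 (adjusted p = 0.0283) and Rpl10a at 0.21 (adjusted p = 0.0214, edgeR quasi-likelihood test), which had been -0.11 (adjusted p = 0.497) without the offsets. Rps20 at -1.05 (adjusted p = 0.0255) and Rpl39 at 0.70 (adjusted p = 0.0297, edgeR quasi-likelihood test) were called with the offsets but not without them, where Rps20 was -0.43, or -0.14 (adjusted p = 0.144) without replicate 4, and Rpl21, Rpl26, Rpl14 and Rpsa were among the calls lost. The offsets took Rps20 at its annotated length of 3706 bases, against a median of 705 for tested members, and the part of this length in its call was not tested. These offsets together with leaving out replicate 4 gave 2 called lower and 0 higher (1.80% and 0.927% of all genes), with 27 lower and 2 higher at an adjusted p below 0.05 (8.87% and 6.14% of all genes). With all 20 midbrain libraries, limma-voom with quality weights, which give libraries far from the rest less weight, gave 43 lower and 2 higher at an adjusted p below 0.05 (10.6% and 9.95% of all genes), and DESeq2 38 lower and 2 higher (16.2% and 11.6%).

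Among the 5 members with the smallest p-values were Rpl36a, Rpl21, Rpl26 and Rpl14 of the large subunit, whose proteins are building blocks of the ribosome in every cell. For Rpl21, CPM values were 351, 359, 372 and 330 in Con, 399, 374, 373 and 493 in MPTP-Veh, and 246, 249, 230 and 274 in MPTP-SU. All 4 MPTP-SU libraries lay below all 8 others. Its log2 fold change against MPTP-Veh was -0.71 (SE 0.10, adjusted p = 0.00161, edgeR quasi-likelihood test), and -0.61 without replicate 4 (adjusted p = 0.000158). With the length and GC offsets it was -0.37 (adjusted p = 0.0117), short of the fold minimum. For Rpl36a, CPM values were 87.3, 92.1, 99.3 and 85.8 in Con, 109, 104, 102 and 132 in MPTP-Veh, and 71.2, 68.8, 64.5 and 75.7 in MPTP-SU. Again the MPTP-SU libraries lay below all others, and the log2 fold change was -0.67 (SE 0.10, adjusted p = 0.00161, edgeR quasi-likelihood test), or -0.58 without replicate 4, just short of the fold minimum, and -0.82 with the offsets.

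Rpl26, which lies near the exit of the peptide tunnel, stood at 285, 266, 290 and 264 CPM in Con, 347, 304, 297 and 444 in MPTP-Veh, and 215, 217, 219 and 254 in MPTP-SU. The 3 groups did not overlap, and the log2 fold change against MPTP-Veh was -0.62 (SE 0.11, adjusted p = 0.00436, edgeR quasi-likelihood test). Without replicate 4 it was -0.48 and with the offsets -0.57, both short of the fold minimum. Rpl14 stood at 238, 215, 233 and 217 CPM in Con, 264, 250, 238 and 433 in MPTP-Veh, and 169, 160, 168 and 187 in MPTP-SU. MPTP-SU was again lowest throughout, and its log2 fold change of -0.80 (SE 0.15, adjusted p = 0.00517, edgeR quasi-likelihood test) was -0.55 without replicate 4 and -0.56 with the offsets, again short of the fold minimum.

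**Figure D2:**
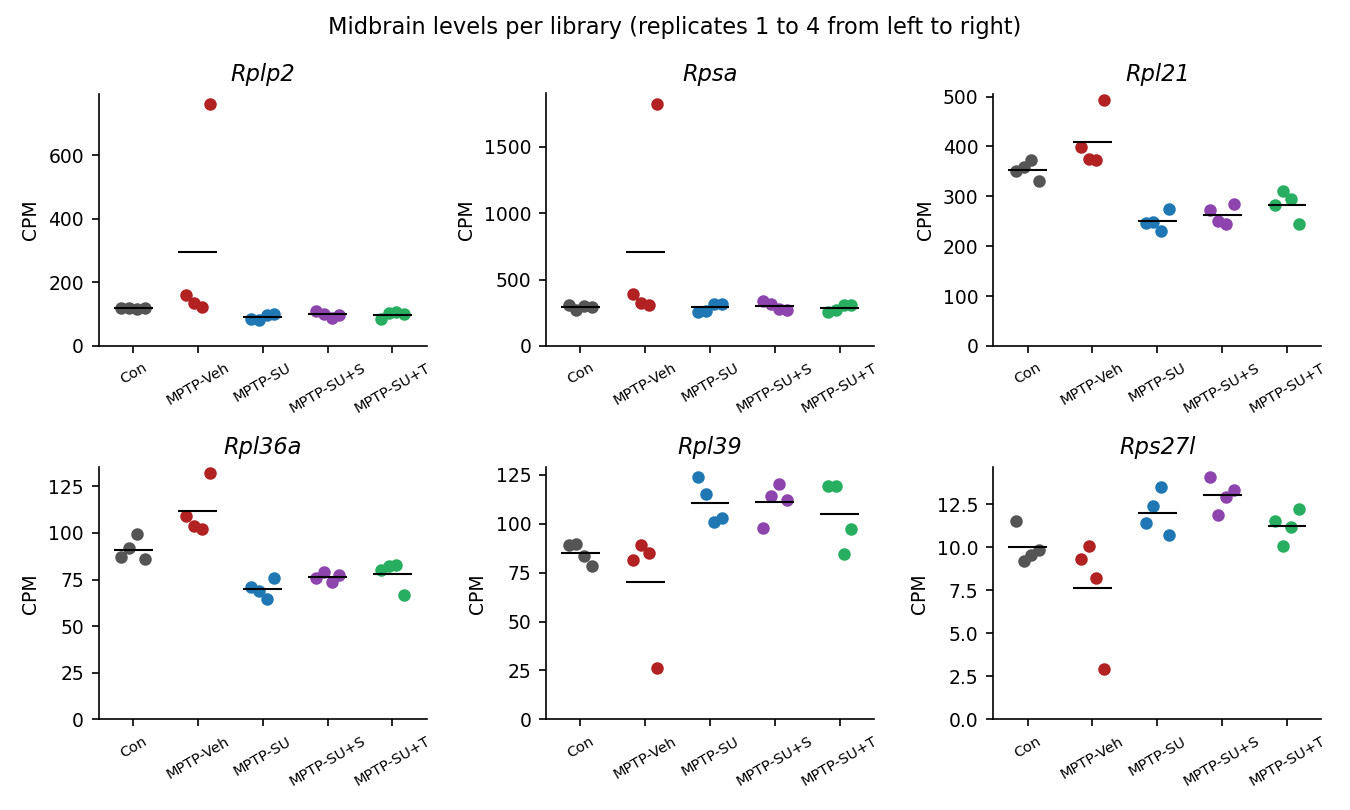
CPM (vertical axis, starting at 0 in each panel) of Rplp2, Rpsa, Rpl21, Rpl36a, Rpl39 and Rps27l in every midbrain library, by group, with replicates 1 to 4 from left to right and the group mean as a bar. Rpl21 and Rpl36a are lower in every MPTP-SU library than in every Con and MPTP-Veh library, Rplp2 and Rpsa are dominated by MPTP-Veh replicate 4 (761 and 1822 CPM), and Rpl39 is higher in MPTP-SU.

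Of the stalk proteins, Rplp2 and Rplp1 had the largest fold changes of all tested members, and these depended on 1 library. Rplp2 stood at 119, 119, 117 and 118 CPM in Con, 160, 136, 124 and 761 in MPTP-Veh, and 84.6, 83.2, 98.6 and 102 in MPTP-SU. The MPTP-SU libraries lay below all others even with replicate 4 set aside. The log2 change was -1.68 (SE 0.40, adjusted p = 0.0144, edgeR quasi-likelihood test) with replicate 4 and -0.60 (adjusted p = 0.000879) without it. Rplp1 stood at 176, 190, 183 and 185 CPM in Con, 259, 211, 191 and 1075 in MPTP-Veh, and 120, 114, 179 and 180 in MPTP-SU. Its MPTP-SU libraries lay below MPTP-Veh but overlapped Con, with a log2 fold change against MPTP-Veh of -1.55 (SE 0.40, adjusted p = 0.0174, edgeR quasi-likelihood test) that became -0.57 (adjusted p = 0.0223) without replicate 4. Rplp0, which anchors the other stalk proteins, stood at 125, 123, 119 and 127 CPM in Con, 135, 120, 123 and 299 in MPTP-Veh, and 113, 108, 143 and 145 in MPTP-SU. The groups overlapped, and the log2 fold change was -0.41 (adjusted p = 0.169, edgeR quasi-likelihood test) with replicate 4 and 0.02 without it.

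Rpsa, a small-subunit protein also known as the laminin receptor precursor, stood at 310, 270, 298 and 291 CPM in Con, 389, 325, 306 and 1822 in MPTP-Veh, and 258, 266, 317 and 317 in MPTP-SU. Its groups overlapped (exact permutation test of MPTP-SU against MPTP-Veh, two-sided, p = 0.114, where 0.0286 is the smallest possible). The call at a log2 change of -1.30 (SE 0.40, adjusted p = 0.0326, edgeR quasi-likelihood test) was lost without replicate 4, at -0.23 (adjusted p = 0.151). Rps15 and Rpl13a were also high in replicate 4, at 1328 and 1426 CPM, and without it they kept an adjusted p below 0.05 but fell short of the fold minimum. The other MPTP-Veh libraries held 304, 279 and 250 CPM of Rps15 and the MPTP-SU libraries 195, 198, 214 and 221. The log2 change was -1.38 (SE 0.37, adjusted p = 0.0197, edgeR quasi-likelihood test) with replicate 4 and -0.42 (adjusted p = 0.00156) without it. For Rpl13a, also known for a role in translational silencing, the other MPTP-Veh libraries held 366, 337 and 314 CPM and the MPTP-SU libraries 206, 194, 253 and 295, and the log2 fold change moved from -1.37 (SE 0.35) to -0.52. Rps15 and Rpl13a are named here after their values were seen.

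Across members, replicate 4 was not simply higher than the other MPTP-Veh libraries. Of 76 members with a median of at least 500 counts, 17 were over 2-fold higher and 6 over 2-fold lower in it than in the mean of replicates 1 to 3. The ratio was 5.44 for Rplp2, 5.36 for Rpsa, 4.87 for Rplp1, 4.78 for Rps15 and 4.21 for Rpl13a. Among all other libraries set against the rest of their own group, MPTP-Veh replicate 3 had 3 members over 2-fold lower, with replicate 4 in its reference, and none of the remaining 38 had any. The matching share of all genes is not given here, so these counts do not set the members apart from other genes. Among the Con, MPTP-Veh and MPTP-SU groups the same library held the highest sums of microglial markers (468 CPM, against 258 to 305 in MPTP-SU) and red blood cell markers (2529 CPM, against 290 to 342), beside the oligodendrocyte sum of 35835 CPM (10390 to 13065 in MPTP-SU, 10121 to 12456 in Con). All 9 oligodendrocyte, 10 microglial and 5 red blood cell markers were detected in each of these groups, and their part in the results was not tested.

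**Figure D3:**
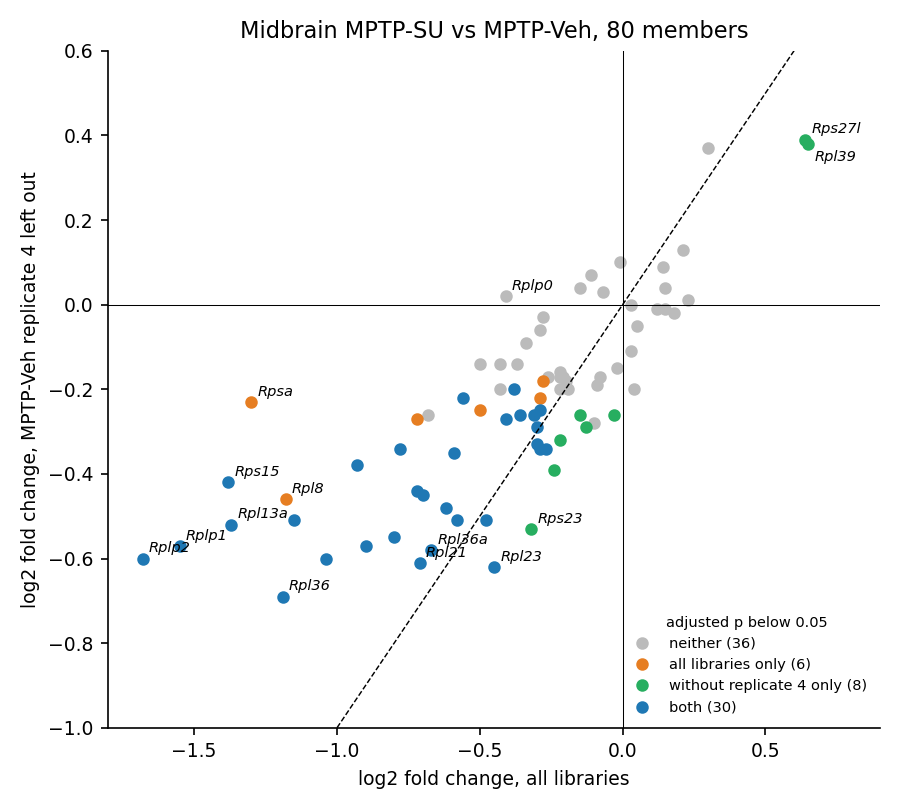
Log2 fold change of the 80 tested members, midbrain MPTP-SU against MPTP-Veh, with all libraries (horizontal axis) and with MPTP-Veh replicate 4 left out (vertical axis); the dashed line marks equality and colours mark which fit gave an adjusted p below 0.05. The changes of Rplp2, Rplp1, Rps15, Rpl13a and Rpsa shrink toward 0 without that library, 30 members pass in both fits, 6 only with it and 8 only without it.

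Some members were lowered in replicate 4 and emerged once it was left out. Rps23, which carries a hydroxylated residue in the decoding centre, stood at 197, 199, 194 and 186 CPM in Con, 193, 189, 195 and 86.2 in MPTP-Veh, and 128, 120, 134 and 151 in MPTP-SU. All MPTP-SU libraries lay below Con and below MPTP-Veh replicates 1 to 3. The log2 change was -0.32 (adjusted p = 0.177, edgeR quasi-likelihood test) with replicate 4 and -0.53 (adjusted p = 0.000325) without it. Rpl23a, Rpl24, Rpl37, Rpl4 and Rps28 also passed as lower only without it, and Rpl30, Rpl37a, Rpl8, Rps21, Rps6 and Rpsa only with it. Rps23 is named here after its values were seen.

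A pair of members went the other way. Rpl39, a very small protein of the exit tunnel, stood at 88.9, 89.4, 83.4 and 78.3 CPM in Con, 81.2, 89, 84.9 and 26.1 in MPTP-Veh, and 124, 115, 101 and 103 in MPTP-SU. The MPTP-SU libraries lay above all 8 others, the only member for which they did so. The log2 change was 0.65 (SE 0.24, adjusted p = 0.0592, edgeR quasi-likelihood test) with replicate 4 and 0.38 (adjusted p = 0.0254) without it, and with the replicate number as a block it was 0.70 (adjusted p = 0.0474) and called. Rps27l, a paralog of Rps27 known as a p53 target, stood at 11.5, 9.18, 9.54 and 9.85 CPM in Con, 9.34, 10.1, 8.19 and 2.92 in MPTP-Veh, and 11.4, 12.4, 13.5 and 10.7 in MPTP-SU. It lay above MPTP-Veh throughout but overlapped Con, with a log2 change of 0.64 (SE 0.23, adjusted p = 0.0534, edgeR quasi-likelihood test) that became 0.39 (adjusted p = 0.0312) without replicate 4.

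Paralog pairs did not move together in every case. Rpl3 fell by 0.78 on the log2 scale (SE 0.21, adjusted p = 0.0207, edgeR quasi-likelihood test), and by 0.34 without replicate 4, while its muscle paralog Rpl3l was too low to test. Rps27 gave 0.05 (adjusted p = 0.729), beside the 0.64 of Rps27l. Rps4x gave -0.15 (adjusted p = 0.356) and Rps4l -0.01 (adjusted p = 0.962). Without replicate 4 these turned to -0.05 for Rps27, 0.04 for Rps4x and 0.10 for Rps4l. With the length and GC offsets Rps4l was 0.46 (adjusted p = 0.0502, edgeR quasi-likelihood test). Rpl10 gave 0.14 (adjusted p = 0.247, edgeR quasi-likelihood test), and 0.09 without replicate 4, and Rpl10l and Rpl39l were untested. Rpl22 fell by 0.29 (SE 0.07, adjusted p = 0.0175), with 80.2, 86.3, 76.5 and 81.7 CPM in Con, 89.9, 86.9, 87.3 and 96.6 in MPTP-Veh and 69.2, 70.1, 77.9 and 78.2 in MPTP-SU. Its paralog Rpl22l1, whose symbol the rule does not take, stood at 41.3, 37.7, 41.3 and 39.6 CPM in Con, 42.4, 44.6, 45.2 and 11.6 in MPTP-Veh and 67.9, 59.1, 54.2 and 54.4 in MPTP-SU. All 4 MPTP-SU values of Rpl22l1 lay above the 8 others, with a log2 change of 0.71 (adjusted p = 0.0572, edgeR quasi-likelihood test) that was 0.42 (adjusted p = 0.0126) without replicate 4. Rpl36al, the paralog of Rpl36a, fell by 0.34 (adjusted p = 0.0212), and Rpl7 by 0.36 (adjusted p = 0.02) beside -0.23 (adjusted p = 0.0981) for Rpl7l1, which was -0.12 without replicate 4.

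Against Con, the midbrain MPTP-SU libraries gave smaller differences. At an adjusted p below 0.05, 2 members were lower (1.02% of all genes) and neither reached the fold minimum, a call made for 0.613% of all genes as lower: Rpl21 at -0.50 (SE 0.10, adjusted p = 0.0261) and Rps26 at -0.42 (SE 0.09, adjusted p = 0.0328, edgeR quasi-likelihood test). In all, 20 members (25%) had an unadjusted p below 0.05, as did 16.1% of all genes. Rps26 stood at 202, 170, 177 and 163 CPM in Con, 192, 177, 200 and 174 in MPTP-Veh and 134, 124, 138 and 136 in MPTP-SU, with no overlap between MPTP-SU and the others. The median over members was -0.177, against 0.0075 over all genes, and 28 members were below Con in all 4 MPTP-SU libraries, 3 above (10.9% and 8.73% of all genes). MPTP-SU lay below every Con and every MPTP-Veh library for 20 members (6.12% of all genes), and above for 1, Rpl39 (5.27%), and with replicate 4 left out for 28 below and 1 above (7.08% and 5.50%). Leptomeningeal fibroblast markers moved with this comparison: their sum was 307 to 540 CPM in Con and 166 to 235 in MPTP-SU, with a median log2 change of -0.840 over the 10 markers and 1 called lower. Choroid plexus markers summed to 38.7 to 1262 CPM in Con and 34.7 to 45.8 in MPTP-SU, with 0 of the 7 tested called. Each of these markers was detected in both groups, and their part in the result was not tested. The count at an adjusted p below 0.05 moved with the fit. With MPTP-Veh replicate 4 kept out of the shared spread, 29 members were lower and 2 higher (8.65% and 7.04% of all genes). On the 8 libraries alone 27 were lower and 1 higher (7.69% and 6.26%). Other methods gave 38 and 1 with limma-voom (10.6% and 9.95%) and 12 and 0 with DESeq2 (3.13% and 1.81%).

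MPTP by itself called no member in the edgeR fit of all libraries. In midbrain MPTP-Veh against Con, 0 of 80 members passed, among 3 genes of all tested (0.0180%), with 32 members (23.7% of all genes) at an unadjusted p below 0.05 (edgeR quasi-likelihood test). DESeq2 gave 6 members past the adjusted p, all higher (2.47% of all genes, with 1.51% lower), of which 4 were called (1.74%, with 0.944% lower), and limma-voom gave 0. Leaving out MPTP-Veh replicate 3, which leaves replicate 4 among 3 libraries, gave 11 called higher (4.90%), and leaving out replicate 4 gave 0. The median over members was 0.152, against 0.0001 over all genes, and it was 0.004 with the length and GC offsets and 0.083 without replicate 4. In all 4 MPTP-Veh libraries 28 members lay above Con and 0 below (6.37% and 6.03% of all genes), and in replicates 1 to 3 alone 31 and 0 (8.55% and 8.08%). The largest were 1.32 for Rplp2, 1.28 for Rpsa and 1.24 for Rplp1 (adjusted p = 0.13 for each, edgeR quasi-likelihood test), which were 0.24, 0.22 and 0.26 without replicate 4. Rplp0 gave 0.45, Rps27l -0.38 and Rps4l -0.01, and 0.03, -0.12 and -0.12 without replicate 4. Over 76 well-counted members, group means set against Con had a median log2 ratio of 0.160 in MPTP-Veh, 0.089 in MPTP-Veh replicates 1 to 3, -0.199 in MPTP-SU, -0.104 with the CB1 antagonist and -0.117 with the PPARγ inhibitor. MPTP-SU had the lowest of the 5 group means for 52 of the 76 and the highest for 0, with no share of all genes given beside these counts. These comparisons share the Con libraries, and those with MPTP-SU share its libraries. Markers of other cells also shifted from Con to midbrain MPTP-Veh. Choroid plexus markers summed to 38.7 to 1262 CPM in Con and 29.4 to 46.8 in MPTP-Veh, and leptomeningeal fibroblast markers to 307 to 540 and 153 to 371. Their median log2 changes were -1.918 and -0.617, against 0.367 for midbrain and 0.358 for microglial markers. In these lists 0 passed the adjusted p, and their part in the result was not tested.

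**Figure D4:**
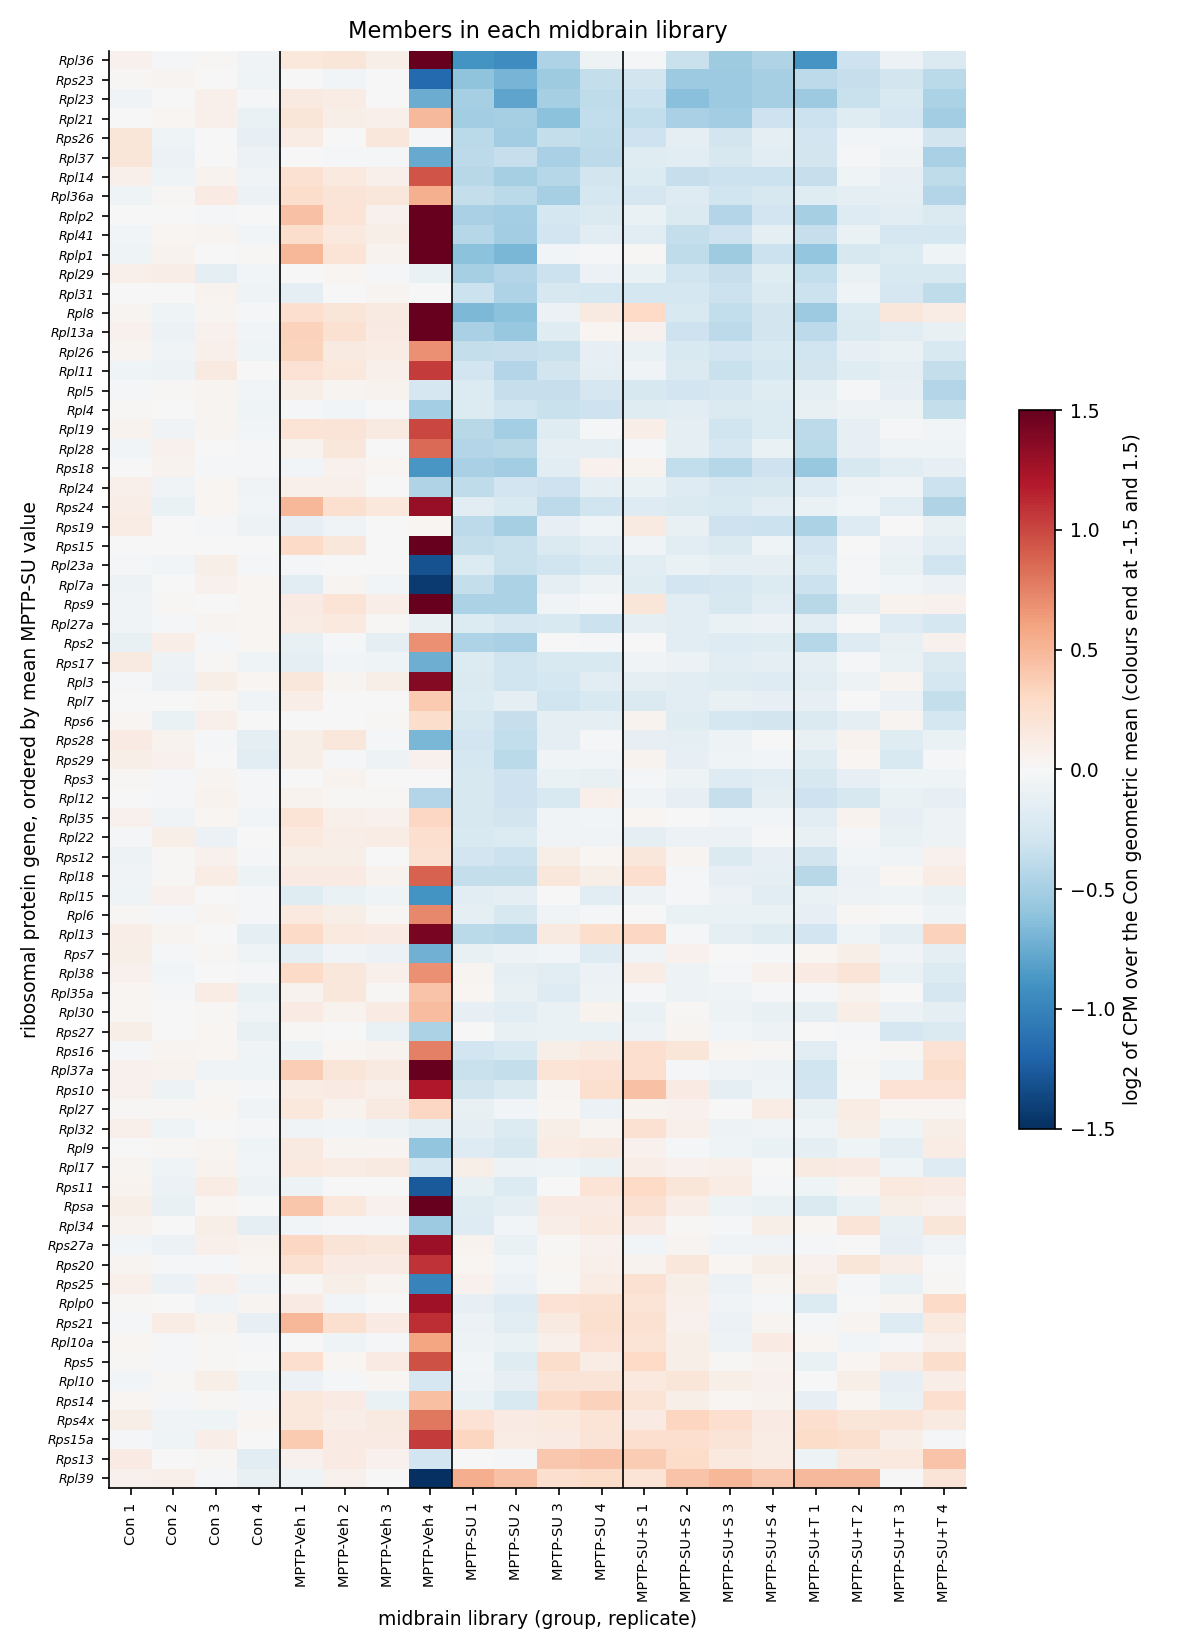
Log2 ratio of CPM to the Con geometric mean (colour, ending at -1.5 and 1.5) for 74 members (rows, ordered by their mean in MPTP-SU) in each of the 20 midbrain libraries (columns, by group). MPTP-SU columns are mostly blue, the antagonist groups paler, and the MPTP-Veh replicate 4 column reaches both ends of the scale, red for Rplp2 and blue for Rpl39.

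The antagonist groups ask whether the CB1 receptor or PPARγ is needed for what SUEHP did. In the midbrain no member was called in MPTP-SU+S against MPTP-SU or in MPTP-SU+T against MPTP-SU, as for all genes tested (0), with 1 member at an unadjusted p below 0.05 in each (1.65% and 1.70% of all genes, edgeR quasi-likelihood test). DESeq2 and limma-voom also gave 0 past the adjusted p, with 1 and 7 members at an unadjusted p below 0.05 for MPTP-SU+S (1.91% and 4.38% of all genes) and 1 and 31 for MPTP-SU+T (1.93% and 7.75%). The median over members was 0.076 for MPTP-SU+S, with 77 of 80 positive, and 0.071 for MPTP-SU+T, with 62 of 80 positive, against 0.0046 and 0.0063 over all genes. MPTP-SU+S libraries lay above MPTP-SU for 7 members and below for 0 (1.14% and 1.01% of all genes), and MPTP-SU+T libraries above for 1, Rps26, and below for 0 (1.00% and 0.956%). Rps26 had the smallest p in both, with 143, 160, 147 and 161 CPM with the CB1 antagonist and 145, 173, 173 and 146 with the PPARγ inhibitor. Its log2 changes were 0.20 and 0.26 (adjusted p = 1 for each, edgeR quasi-likelihood test). Rpl21 stood at 273, 251, 245 and 284 CPM with the CB1 antagonist and 283, 310, 295 and 245 with the PPARγ inhibitor, overlapping MPTP-SU in each case. Rpsa, the stalk members, Rps4l and Rps27l lay between -0.09 and 0.24 in both comparisons (adjusted p = 1, edgeR quasi-likelihood test), with every group overlapping MPTP-SU.

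In the spinal cord no member was called in any of the 5 comparisons, where 0.0240% of all genes were called in MPTP-SU+T against MPTP-SU and 0 in the others (edgeR quasi-likelihood test with Benjamini-Hochberg adjustment). The members at an unadjusted p below 0.05 numbered 21 for MPTP-Veh against Con, 0 for MPTP-SU against MPTP-Veh, 22 for MPTP-SU against Con, 2 for MPTP-SU+S against MPTP-SU and 6 for MPTP-SU+T against MPTP-SU, where 12.8%, 3.81%, 9.17%, 5.49% and 12.1% of all genes did so. At the adjusted p, DESeq2 and limma-voom each gave 2 members as lower in MPTP-Veh against Con (0.210% of all genes lower and 0.144% higher with DESeq2, 0.180% and 0.198% with limma-voom) and 0 in the others. Medians were -0.078, -0.004, -0.089, -0.006 and 0.020 in that order, against -0.0019, 0.0002, -0.0036, 0.0003 and 0.0068 over all genes. With the length and GC offsets they were -0.007, -0.028, -0.044, 0.006 and 0.050. Without Con replicate 1 the medians of MPTP-Veh and MPTP-SU against Con were -0.028 and -0.029, and without Con replicate 2 that of MPTP-Veh was -0.118. Rpl36a had the smallest p in both comparisons with Con. It stood at 104, 80.5, 85.7 and 93.8 CPM in Con and 78.1, 69.3, 73.7 and 73.9 in MPTP-Veh, below every Con library, with a log2 change of -0.30 (SE 0.06, adjusted p = 0.0963, edgeR quasi-likelihood test). MPTP-Veh lay below Con for 9 members and above for 0 (2.47% and 2.26% of all genes), and MPTP-SU below Con for 5 (1.87%). Other measures also separated Con from MPTP-Veh here: microglial markers summed to 224 to 258 CPM in Con and 266 to 284 in MPTP-Veh, oligodendrocyte markers to 18821 to 21093 and 21241 to 21989, and mitochondrially encoded genes took 12.37% to 14.23% and 14.28% to 16.42% of the counts. In MPTP-SU these were 262 to 283 CPM, 19867 to 22683 CPM and 15.1% to 16.47%. None of the 10 microglial and 9 oligodendrocyte markers, all detected in each group, passed the adjusted p in either comparison with Con (edgeR quasi-likelihood test), and their part in the result was not tested. MPTP-SU lay below MPTP-Veh for 1 member and above for 2 (1.86% and 1.41%). Con replicate 2 had the lowest share of counts on members (0.9455%) and 8.88% on long nuclear RNAs, of which Gm26917 held 90.6%. Without this library, 12 members passed the adjusted p as lower in MPTP-Veh against Con (1.81% of all genes) and 2 in MPTP-SU against Con (0.125%). Rps27l, at -0.28 (adjusted p = 0.223, edgeR quasi-likelihood test), had the smallest p in MPTP-SU+T against MPTP-SU. Rplp1 gave -0.24 and Rplp2 -0.20 in MPTP-Veh against Con (adjusted p = 0.273 and 0.319), and 0.01 and 0.03 in MPTP-SU against MPTP-Veh (adjusted p = 0.999 for both, edgeR quasi-likelihood test).

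The difference between the tissues in the effect of SUEHP was tested directly in a fit of all 40 libraries, in which 81 members were tested. This fit pools the spread of 2 tissues that differed in it. The common dispersion, edgeR's measure of spread between libraries, was 0.0512 in the midbrain fit, 0.0071 in the spinal cord fit and 0.0293 here. Its p-values therefore rest on a smaller common spread than those of the midbrain fit. The change from MPTP-Veh to MPTP-SU was lower in the midbrain than in the spinal cord for 31 members at an adjusted p below 0.05 and higher for 0 (10.7% and 6.11% of all genes), and 19 of the 31 also passed the fold minimum (8.14%). The median difference was -0.297, against -0.0014 over all genes. With the length and GC offsets the median was -0.135, and 12 members passed the adjusted p and the fold minimum, 11 lower and 1 higher, 10 of them among the 19. Among the 5 with the smallest p were Rpl21 at -0.81 (adjusted p = 0.000117), Rpl36a at -0.75 (adjusted p = 0.000162), Rpl14 at -0.86 (adjusted p = 0.000707) and Rpl26 at -0.62 (adjusted p = 0.00234, all edgeR quasi-likelihood test). Rplp2 differed by -1.69 (adjusted p = 0.00835) and Rpsa by -1.23 (adjusted p = 0.0369), and Rplp0 by -0.38 (adjusted p = 0.237, edgeR quasi-likelihood test). The midbrain change of Rplp0 in the midbrain fit was -0.41 with all libraries and 0.02 without MPTP-Veh replicate 4. Without midbrain MPTP-Veh replicate 4, Rplp2 gave -0.61 and Rpsa -0.17 (adjusted p = 0.443), and with the offsets Rpl21 gave -0.46 (adjusted p = 0.00312, edgeR quasi-likelihood test). Without midbrain MPTP-Veh replicate 4, 27 were lower and 0 higher at an adjusted p below 0.05 (5.99% and 5.51% of all genes), and 7 passed the fold minimum as well (2.30%). On the 16 libraries of the 4 groups alone, 2 members were called lower (0.252%, with 0.00599% higher).

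**Figure D5:**
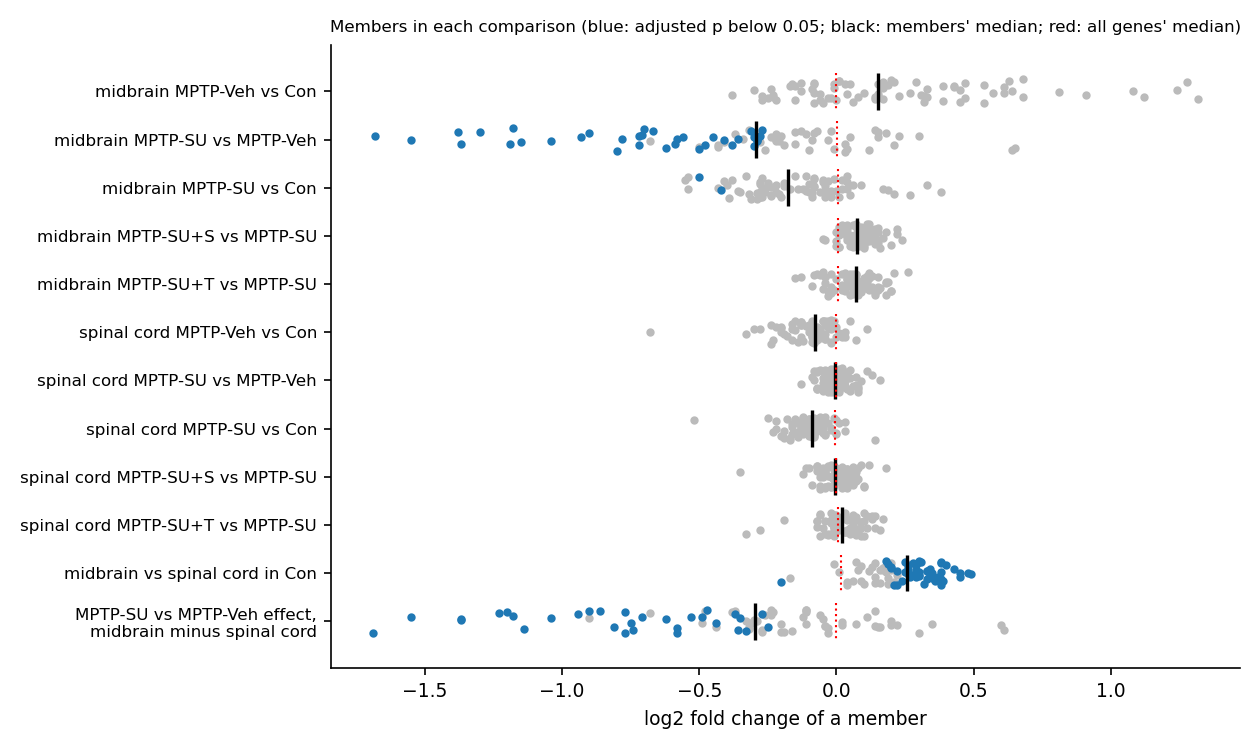
Log2 fold change of each tested member (points, horizontal axis) in the 12 comparisons (rows), with members past an adjusted p of 0.05 in blue, the members' median as a black bar and the median of all genes tested as a red dotted bar. The members spread to the left in midbrain MPTP-SU against MPTP-Veh (median -0.292) and in the difference between the tissues (-0.297), to the right between the tissues of Con mice (0.256), while the medians in the spinal cord lie between -0.089 and 0.020, with single members down to -0.68.

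Between the tissues of Con mice, 50 of the 80 tested members were higher in the midbrain and 1 lower at an adjusted p below 0.05, against 19.2% and 21.0% of all genes (edgeR quasi-likelihood test with Benjamini-Hochberg adjustment over 15987 genes). None passed the fold minimum, where 7.74% of all genes did so as higher and 9.68% as lower. The median over members was 0.256, against 0.0154, and 77 of the 80 were positive. Rps2, a small-subunit protein near the mRNA entry channel, stood at 122, 142, 129 and 135 CPM in the midbrain and 102, 85.1, 93.4 and 92.8 in the spinal cord, scaled over both tissues. Its groups did not overlap, and it had the largest log2 fold change, 0.49 (SE 0.07, adjusted p = 0.000205). It was followed by Rps27 at 0.48, Rpl10 at 0.45, Rps19, whose human counterpart is mutated in Diamond-Blackfan anaemia, at 0.45, and Rpl9 at 0.43. The lead of Rps2 over Rps27 was smaller than the SE of either (0.07 and 0.10). With the length and GC offsets Rps27 at 0.66 and Rps28 at 0.59 were the largest, and Rps2 was 0.43. The member that was lower was Rpl22, at 80.4, 86.7, 76.7 and 81.9 CPM in the midbrain and 103, 91.7, 88 and 90.6 in the spinal cord, with a log2 change of -0.20 (SE 0.07, adjusted p = 0.032, edgeR quasi-likelihood test), which was -0.08 (adjusted p = 0.305) with the length and GC offsets. Rpsa was higher in the midbrain at 0.28 (adjusted p = 0.021), and the stalk members gave 0.06 for Rplp0, 0.16 for Rplp1 and 0.09 for Rplp2, none past the threshold. The tissues also differed in other cells: oligodendrocyte markers summed to 10121 to 12456 CPM in the midbrain and 18821 to 21093 in the spinal cord, and skeletal muscle markers to 4.28 to 8.66 and 42.7 to 149. Astrocyte markers summed to 2747 to 2977 CPM in the midbrain and 4452 to 5493 in the spinal cord, and red blood cell markers to 250 to 402 and 433 to 1366. Microglial markers went the other way, with 259 to 284 and 224 to 258 CPM, as did choroid plexus markers, with 38.7 to 1262 and 13.6 to 18.3. At the adjusted p, 8 of 9 oligodendrocyte, 5 of 8 astrocyte and 5 of 5 red blood cell markers were lower in the midbrain, and 1 astrocyte and 3 of 10 microglial markers were higher (edgeR quasi-likelihood test). All 10 muscle markers tested were lower and 4 of 7 choroid plexus markers higher. All 9 oligodendrocyte markers were detected in both tissues, and the part of these cells in the result was not tested.

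Other genes of the ribosome and of translation were counted from lists of pathway members. In midbrain MPTP-SU against MPTP-Veh, 14 of 28 elongation factor and other TOP mRNAs were lower and 0 higher at an adjusted p below 0.05 (median -0.384), 17 of 51 ribosome biogenesis genes were lower and 0 higher (median -0.329), and 30 of 75 mitochondrial ribosomal protein genes were lower and 2 higher (median -0.350). Those shares are set against 12.8% and 7.38% of all genes. Without MPTP-Veh replicate 4 the counts were 14 lower and 0 higher, 15 and 0, and 21 and 2, in the same order, with medians of -0.228, -0.134 and -0.197. Of 27 genes of the mTORC1 pathway, 3 were higher and 6 lower (median 0.028), and 3 and 3 without that library. Among ribosomal genes whose symbols the rule does not take, Fau, which encodes a ubiquitin-like protein fused to Rps30, fell by 1.29 on the log2 scale (SE 0.31, adjusted p = 0.0143), and by 0.56 without replicate 4 (edgeR quasi-likelihood test). Rack1 gave 0.17 (adjusted p = 0.292), which was 0.27 without it, and Rps3a1 -0.18 (adjusted p = 0.0959).

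Of the translation factors, Eef1b2, the exchange factor of elongation factor 1, fell by 0.97 (SE 0.17, adjusted p = 0.00436, edgeR quasi-likelihood test), and by 0.65 without MPTP-Veh replicate 4. Eef1a1, which carries aminoacyl-tRNA to the ribosome, gave 0.25 (adjusted p = 0.0765), which was 0.15 without it, and Eef2, the translocase, -0.68 (adjusted p = 0.0639), which was -0.13 without that library. Hnrnpa1 and Naca fell by 0.69 and 0.63, and by 0.57 and 0.51 without it. Nucleolin (Ncl) fell by 1.27 (SE 0.22, adjusted p = 0.00436), and by 0.80 without it, and Nop56, a core protein of snoRNA complexes, by 0.60 and 0.57. Larp1, the TOP mRNA binding protein, fell by 0.67 (SE 0.16, adjusted p = 0.0157), and by 0.36 without it. The genes of the S6 kinases under mTORC1 went opposite ways: Rps6kb1 was higher by 0.67 (SE 0.16, adjusted p = 0.0139), and by 0.49 without it, and Rps6kb2 fell by 0.79 (SE 0.21, adjusted p = 0.0186), and by 0.42 without it, while Mtor gave 0.35 (adjusted p = 0.0921, edgeR quasi-likelihood test), and 0.16 without it. Of the mitochondrial ribosomal proteins, Mrps9 fell by 0.61, Mrpl51 by 1.02 and Mrps25 by 0.88, and by 0.48, 0.61 and 0.55 without that library.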

How the data were processed

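Poly(A) RNA of the midbrain and spinal cord was sequenced as paired 100-bp reads, and per the authors fastp trimmed the reads, STAR aligned them and Salmon quantified transcripts. The submitters' processing notes also name GATK and GRCm39, and the annotation and versions are not given in the sources used here. The deposited values, whole numbers for each gene symbol in 1 table per library, carry no stated unit and were taken as unnormalized estimated counts, from their totals and the use of Salmon. Totals ran from 11958200 to 16639823 counts.

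Genes passing filterByExpr were tested per tissue in 1 model of the 5 groups (20 libraries) with edgeR 4.0.16 (R 4.3.3), TMM scaling and the quasi-likelihood test, with Benjamini-Hochberg adjustment over all genes. The tissue comparison used the 8 Con libraries and the tissue difference in the effect all 40. A call needed an adjusted p below 0.05 and a fold change above 1.5. CPM values are counts scaled by the TMM-adjusted library size. Single values were compared by a two-sided exact permutation test, in which 4 against 4 cannot go below p = 0.0286. limma 3.58.1 (voom with quality weights), DESeq2 1.42.0, RLE and library-size scaling, other filters, length and GC offsets, a replicate block and leaving out each library were alternatives. Leaving MPTP-Veh replicate 4 out of the shared spread or together with the offsets, and the total without long nuclear RNAs, were added after seeing the data. Transcript lengths and GC content came from GENCODE models on GRCm38, by symbol. The fit was tested on simulated data. Tables were made with Python 3.11.15 and pandas 2.3.3.

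Members and gene lists were chosen with earlier results of these data known. The rule named Rpsa, the stalk members and restricted paralogs, in each comparison the 5 members with the smallest p in each direction, the 5 highest and lowest per kb, the 5 largest tissue differences, paralog pairs, and fixed genes plus the 3 called genes with the smallest p of each other list. Some genes that the rule names are not reported here. Other named genes were chosen after their values were seen.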

Additional observations from a re-analysis of the deposited data

Results flagged for a closer look

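A library was marked when its gap to the nearest other library of its group exceeded the 95% critical value of Dixon's test. Of 160 groups of 4 checked, 17 were marked, where chance alone marks about 1 in 20. Many marks fell on the same library, and Rps15, Rpl13a and Rps23 were named after their values were seen. The number of marks therefore cannot be read against that rate. Midbrain MPTP-Veh replicate 4 was marked for the share of counts on members, 2.114%, as the highest of its group. It was also the highest for Rpsa at 1822 CPM, Rplp0 at 299, Rplp1 at 1075, Rplp2 at 761, Rpl14 at 433, Rps15 at 1328 and Rpl13a at 1426, and the lowest for Rps23 at 86.2 and Rpl39 at 26.1. The remaining marks fell on scattered libraries. In the midbrain these were Rpl26 in MPTP-SU replicate 4 (254 CPM, highest) and Rps23 in MPTP-SU+S replicate 1 (160 CPM, highest). In the spinal cord they were Rplp1 (173 CPM) and Rpl26 (268 CPM) in MPTP-SU+T replicate 1, both highest, Rplp2 in MPTP-SU replicate 4 (96.3 CPM, lowest), Rpl39 in MPTP-SU replicate 3 (76.8 CPM, highest) and, in MPTP-Veh replicate 1, the share of members with mitochondrially encoded genes left out of the total (1.305%, highest).

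The change from MPTP-Veh to MPTP-SU differed between midbrain and spinal cord by the test of the difference itself, in a fit that pools the spread of both tissues. It was called lower in the midbrain for 19 members (8.14% of all genes), or 7 (2.30%) without midbrain MPTP-Veh replicate 4, and by -0.81 for Rpl21, -0.75 for Rpl36a, -0.86 for Rpl14 and -0.62 for Rpl26 on the log2 scale (edgeR quasi-likelihood test with Benjamini-Hochberg adjustment).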

How the results depend on the processing

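The lower median of the members in midbrain MPTP-SU against MPTP-Veh, -0.292, stayed below 0 under every alternative run, while the number called moved with the setting. Against 20 called, all lower, 11 were called with length and GC offsets (10 lower and 1 higher, 9 of them among the 20), 9 with limma-voom (8 among the 20; 2.90% of all genes lower), 0 on the 8 libraries alone (0 of all genes), 2 with the offsets and without MPTP-Veh replicate 4, and 36 with no fold minimum, with shares of all genes as in the text. The median was -0.164 with offsets and -0.160 with offsets and without replicate 4. Leaving out 1 library gave 5 to 26 called and medians of -0.322 to -0.227. It gave 5 called when MPTP-Veh replicate 4 was left out (2.09% of all genes lower) and 11 when it was MPTP-SU replicate 2. For the other libraries left out the share of all genes is not given here, so those counts do not set the members apart from other genes. With the offsets, Rpl35 turned to 0.09 and Rpl29 to 0.04, both among the 36 past the adjusted p without offsets. Members outside the 36 also turned, among them Rps4l to 0.46 (adjusted p = 0.0502, edgeR quasi-likelihood test), Rps14 to 0.22, Rpl10a to 0.21, Rps19 to 0.19, Rps2 to 0.08 and Rpl18 to 0.04. The tissue difference of that effect gave 12 called with offsets (11 lower; 6.62% of all genes lower and 3.15% higher), 11 with limma-voom, all lower (3.17%), 2 on 16 libraries, 31 with no fold minimum, and a median of -0.135 with offsets, where Rpl35 turned to 0.14. Without 1 library it gave 7 to 26 called and medians of -0.343 to -0.208, with 7 called without midbrain MPTP-Veh replicate 4 (2.30% of all genes lower). The share of all genes is again not given for the other libraries left out.

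Midbrain MPTP-Veh against Con gave 4 called with DESeq2 and 0 to 11 without 1 library, 11 of them without MPTP-Veh replicate 3 (4.90% of all genes as higher), and its median of 0.152 became 0.004 with offsets, -0.004 with offsets and without replicate 4, and 0.083 to 0.186 without 1 library. Midbrain MPTP-SU against Con gave 2 called with library size alone (1.96% of all genes), 1 with offsets (1.11%), 2 with limma-voom (3.30%), 2 with offsets and without MPTP-Veh replicate 4 (2.53%), all lower, and 2 with no fold minimum. Its median was -0.295 with library size alone and -0.213 to -0.122 without 1 library. Without 1 library the medians ran from 0.043 to 0.109 for MPTP-SU+S and 0.03 to 0.11 for MPTP-SU+T in the midbrain. In the spinal cord they ran from -0.118 to -0.028, -0.018 to 0.016, -0.115 to -0.029, -0.016 to 0.005 and -0.002 to 0.044, with the comparisons in the order of the text. The spinal MPTP-Veh against Con median was -0.007 with offsets. The tissue comparison gave 2 called higher with offsets (7.91% of all genes), 1 averaged over all 40 libraries (9.80%), 51 with no fold minimum, and 0 to 1 called with medians of 0.208 to 0.306 without 1 library.

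Replicate numbers were not taken as pairs, since the correlations of same-numbered libraries were not all over 0.1: they ran from -0.168 to 0.378 in the midbrain, -0.171 to 0.229 in the spinal cord and -0.194 to 0.339 between the tissues. The highest means in the midbrain were 0.169 for MPTP-Veh with MPTP-SU+T, 0.151 for MPTP-SU with MPTP-SU+T and 0.150 for MPTP-Veh with MPTP-SU, where other numbers gave -0.053, -0.050 and -0.046, so a partial pairing is possible. With the replicate number as a block, midbrain MPTP-SU against MPTP-Veh gave 19 called (18 lower and 1 higher, Rpl39; 7.53% and 4.62% of all genes), with Rpsa no longer called (adjusted p = 0.0574, edgeR), MPTP-SU against Con 0 and the tissue difference 17, all lower (7.52%). The block with offsets gave 11 (10 lower; 5.74% of all genes), 1 (1.06%) and 12 (11 lower; 6.36%), and 1 higher in the tissue comparison (7.63%), with medians of -0.158 and, for the tissue difference, -0.136. It gave medians of 0.002 in midbrain and -0.006 in spinal MPTP-Veh against Con. Under the block with offsets, Rpl35 gave 0.11, Rpl29 0.06 and, for the tissue difference, Rpl35 0.15.

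Without mitochondrially encoded genes in the total, the mean share of members was 1.65% in midbrain Con, 1.78% in MPTP-Veh, 1.28% in MPTP-SU, 1.47% with the CB1 antagonist and 1.48% with the PPARγ inhibitor, and in the spinal cord 1.29%, 1.26%, 1.25%, 1.26% and 1.24% in the 5 groups in order. Without long nuclear RNAs as well it was 1.72%, 1.91%, 1.49%, 1.59% and 1.58%, and in the spinal cord 1.39%, 1.3%, 1.3%, 1.31% and 1.33%. With the listed pseudogenes added, spinal MPTP-SU had 1.08%. Over all counts, medians and shares of members, 473 values stayed within 1.5 times or 1 SD of the reported one and 57 moved further.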
